A study of Mus musculus with 6 samples.

Results

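The genes described here mostly encode the constitutive proteasome and the factors that build it, in mouse CD8+ T cells kept with palmitate or without it. Activators, an inhibitor and a few other genes with similar names are also among them. All were chosen by name, from the symbols of the GENCODE M21 annotation. The rule took every protein-coding gene whose symbol there begins with Psma, Psmb, Psmc, Psmd, Psme, Psmf or Psmg, together with Pomp. It left out the immunoproteasome genes Psmb8, Psmb9 and Psmb10. This gave 48 of the 29370 genes in the deposited gene matrix, and 47 of them were among the 12068 genes with enough reads to test. The family was singled out with results of the palmitate comparison in view, so its values in that comparison are given as a description.

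The proteasome is the protease that breaks down ubiquitin-tagged proteins in the cytoplasm and nucleus. Its core is a barrel with an alpha ring at each end and a pair of beta rings between them, and 3 of the constitutive beta subunits, Psmb5, Psmb6 and Psmb7, carry the catalytic sites. A regulatory cap binds the ubiquitin chain, removes it and threads the substrate into the core through a ring of 6 ATPases. Dedicated chaperones put core and cap together, and other activators can take the cap's place. In T cells the proteasome also supplies peptides for antigen presentation, and activated lymphocytes replace part of the constitutive catalytic subunits with immunoproteasome forms.

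The study asked what palmitate, a saturated long-chain fatty acid, does to the function of CD8+ T cells. The cells were wild-type (WT) and were taken from mouse spleen, lymph nodes and pancreas; strain and age are not stated in the labels. RNA was sequenced after 48 h from 3 palmitate libraries (100 µM in complete T cell medium) and 3 control libraries. The labels do not say what control cells received instead, nor whether each library had its own animal or culture. The p-values therefore cover only variation among these libraries, part of which may be technical. Total gene counts ran from 16724588 to 29362276, the lowest in palmitate library 3. Of 5 CD8+ T cell markers all 5 rose, with summed levels of 1096 to 1209 CPM (counts scaled to a common library total) in palmitate libraries, against 686 to 909.7 CPM in control libraries. Cd4 stayed at or below 0.565 CPM in every library, and 4 myeloid markers summed to at most 1.31 CPM in palmitate libraries and 1.44 CPM in control libraries. Of 6 B and plasma cell markers 2 rose, Jchain (9.76 ± 2.64 CPM in palmitate cells, 1.78 ± 0.651 CPM in control cells) and Cd79a (0.835 ± 0.337 CPM in palmitate cells, 0.21 ± 0.0716 CPM in control cells), while the list summed to 245 to 269 CPM in palmitate libraries and 246 to 285 CPM in control libraries, mostly Xbp1. Of 2 erythroid markers Hbb-bs rose, and they summed to 4.12 to 6.53 CPM in palmitate libraries and 0.987 to 1.96 CPM in control libraries. The 2 NK cell markers summed to 0.726 to 2.15 CPM in palmitate libraries and 0.654 to 1.52 CPM in control libraries, and the 5 pancreas markers, with Ins1 and Ins2 at 0, to 1.45 to 2.62 CPM in palmitate libraries and 1.2 to 1.9 CPM in control libraries. Of 5 cycling-cell markers 2 fell, with sums of 2324 to 2912 CPM in palmitate libraries, against 2763 to 2948 CPM in control libraries. The part of these markers in the values below was not tested, and in bulk RNA fewer cells of a type and less RNA per cell cannot be told apart.

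Promoters of the proteasome genes were searched for short sequence motifs. RefSeq's promoter table (build GRCm38.p6, 250 bases before each start and 50 after) held 40 of the 48 members. The transcription factor NFE2L1 raises proteasome genes through antioxidant response elements when the proteasome is impaired. The forms TGACNNNGC and TGAGNNNGC of that element were searched on both strands, with CCAAT, the box that NF-Y binds, and the E-box CACGTG. TGACNNNGC and TGAGNNNGC differ at a fixed base, so no match on a strand counts for both. TGAGNNNGC stood in 12 of the 40 promoters (30.0%), against 17.5% of all 27025 promoters of the same length, and TGACNNNGC in 6 (15%), against 12.5%. CCAAT stood in 14 (35%) against 37.9%, and CACGTG in 3 (7.5%) against 7.24%. In the 250 bases before the start alone, TGAGNNNGC stood in 9 of the 40 (22.5%) against 14.2%, and TGACNNNGC in 5 (12.5%) against 10.1%. There CCAAT stood in 14 (35%) against 34.5%, and CACGTG in 3 (7.5%) against 6.05%. The 12 promoters with TGAGNNNGC include that of Psmc3ip, a factor of meiotic recombination. The 4 promoters printed next are those of the core gene Psma4, the cap gene Psmd12 and the base chaperone gene Psmd9, all called lower in palmitate cells, and of the catalytic subunit gene Psmb5, which was not called. They lie at chr9:54950609-54950908 (plus strand) for Psma4, chr11:107479278-107479577 (plus strand) for Psmd12, chr5:123227940-123228239 (plus strand) for Psmd9 and chr14:54617946-54618245 (minus strand) for Psmb5. Each is written 5′ to 3′ along its gene, with matches to TGACNNNGC, TGAGNNNGC or CACGTG on either strand in capitals.
Psma4: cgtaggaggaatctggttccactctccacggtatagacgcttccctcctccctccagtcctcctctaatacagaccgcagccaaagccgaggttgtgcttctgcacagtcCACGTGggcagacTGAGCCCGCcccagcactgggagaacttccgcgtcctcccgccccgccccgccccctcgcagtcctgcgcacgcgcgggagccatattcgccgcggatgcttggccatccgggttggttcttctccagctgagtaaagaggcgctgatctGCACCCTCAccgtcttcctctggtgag
Psmd12: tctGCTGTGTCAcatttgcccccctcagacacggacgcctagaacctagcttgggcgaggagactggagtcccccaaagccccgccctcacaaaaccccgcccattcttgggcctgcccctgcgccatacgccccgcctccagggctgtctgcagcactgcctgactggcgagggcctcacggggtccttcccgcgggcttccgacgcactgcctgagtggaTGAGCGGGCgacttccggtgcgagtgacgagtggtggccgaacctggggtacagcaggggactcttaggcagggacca
Psmd9: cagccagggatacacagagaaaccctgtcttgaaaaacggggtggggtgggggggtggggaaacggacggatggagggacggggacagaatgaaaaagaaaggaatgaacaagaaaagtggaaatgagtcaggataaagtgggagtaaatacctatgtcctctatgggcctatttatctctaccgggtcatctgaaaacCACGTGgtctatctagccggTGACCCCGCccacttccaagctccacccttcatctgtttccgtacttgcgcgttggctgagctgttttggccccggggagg
Psmb5: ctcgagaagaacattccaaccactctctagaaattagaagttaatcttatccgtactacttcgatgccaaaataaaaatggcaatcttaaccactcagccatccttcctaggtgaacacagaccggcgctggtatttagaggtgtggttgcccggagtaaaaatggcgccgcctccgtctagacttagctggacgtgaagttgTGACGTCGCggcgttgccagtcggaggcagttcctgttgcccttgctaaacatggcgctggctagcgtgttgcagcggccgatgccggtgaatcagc
Psmd12 held both forms of the element, TGACNNNGC far upstream at position -247 and TGAGNNNGC at position -28 from the start. Psma4 held TGAGNNNGC at position -127 and again at position 24, with CACGTG at position -140. In Psmb5 the single match was TGACNNNGC at position -47, and in Psmd9 that form lay at position -31 behind CACGTG at position -51. The 6 promoters with TGACNNNGC were those of Psmd12 and Psmd9, which were called, and of Psmb5, Psmb6, Psmc6 and Psme4, which were not. Of the 12 with TGAGNNNGC, only Psma4 and Psmd12 were called. Psmd6, Psmd7 and Psmg1 also fell and were not among the genes with either form, though the promoter table did not hold every member. A match says nothing of whether a factor binds there.

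Core genes were more abundant than cap genes in both groups. On the TPM scale (a share of all transcripts that allows for their length), the median core gene stood at 377 TPM in palmitate cells and 405 TPM in control cells, and the median cap gene at 155 TPM in palmitate cells and 167 TPM in control cells. The core order was headed by Psma3, at 758 ± 49.4 TPM in palmitate cells and 867 ± 27.3 TPM in control cells, and closed by the catalytic subunit Psmb5, at 181 ± 13.5 TPM in palmitate cells and 197 ± 4.85 TPM in control cells (SD, n = 3 each). Highest over lowest came to 4.19 in palmitate cells and 4.4 in control cells. Below Psma3, the levels of Psmb4, Psma7 and Psma4 did not all part by their spread: in control libraries Psmb4 ran from 614 to 730.4 TPM, Psma4 from 623 to 669 TPM and Psma7 from 572 to 641 TPM.

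Among cap genes Psmd14, whose product cuts the ubiquitin chain off the substrate, was highest at 277 ± 13.2 TPM in palmitate cells and 319 ± 16.6 TPM in control cells. Psmd3, a lid scaffold, was lowest at 55.2 ± 2.48 TPM in palmitate cells and 55.1 ± 2.59 TPM in control cells. Of the assembly factors, Pomp, the maturation factor of the beta rings, had 341 to 377 TPM in palmitate libraries and 356 to 384 TPM in control libraries, close to the median core gene. Of that level a 383-base transcript gave 207 ± 9.67 TPM in palmitate cells and 202 ± 18.7 TPM in control cells, from 16.4% of the gene's reads. The 1579-base transcript of Pomp had 149.6 ± 9.15 TPM in palmitate cells and 162 ± 5.32 TPM in control cells, below the median core gene. The chaperones of the base were scarcer, between 28.5 TPM (Psmd9) and 48.4 TPM (Psmd5) in palmitate cells and between 29.0 TPM (Psmd9) and 48.7 TPM (Psmd5) in control cells.

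Part of these levels came from transcripts that do not encode the subunit. A 292-base retained-intron transcript of Psmb4 stood at 308 ± 28.5 TPM in palmitate cells and 293 ± 73.1 TPM in control cells, beside 333 ± 17.2 TPM in palmitate cells and 347 ± 3.59 TPM in control cells of its coding transcript, although it took 9.72% of the gene's reads. With coding transcripts alone Psma3 averaged 358 TPM in palmitate cells and 436 TPM in control cells, and the top places passed to Psma7 (563 TPM) in palmitate cells and Psma4 (630.1 TPM) in control cells. Psmb5 and Psmd3 stayed lowest on that scale in both groups.

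**Figure D1:**
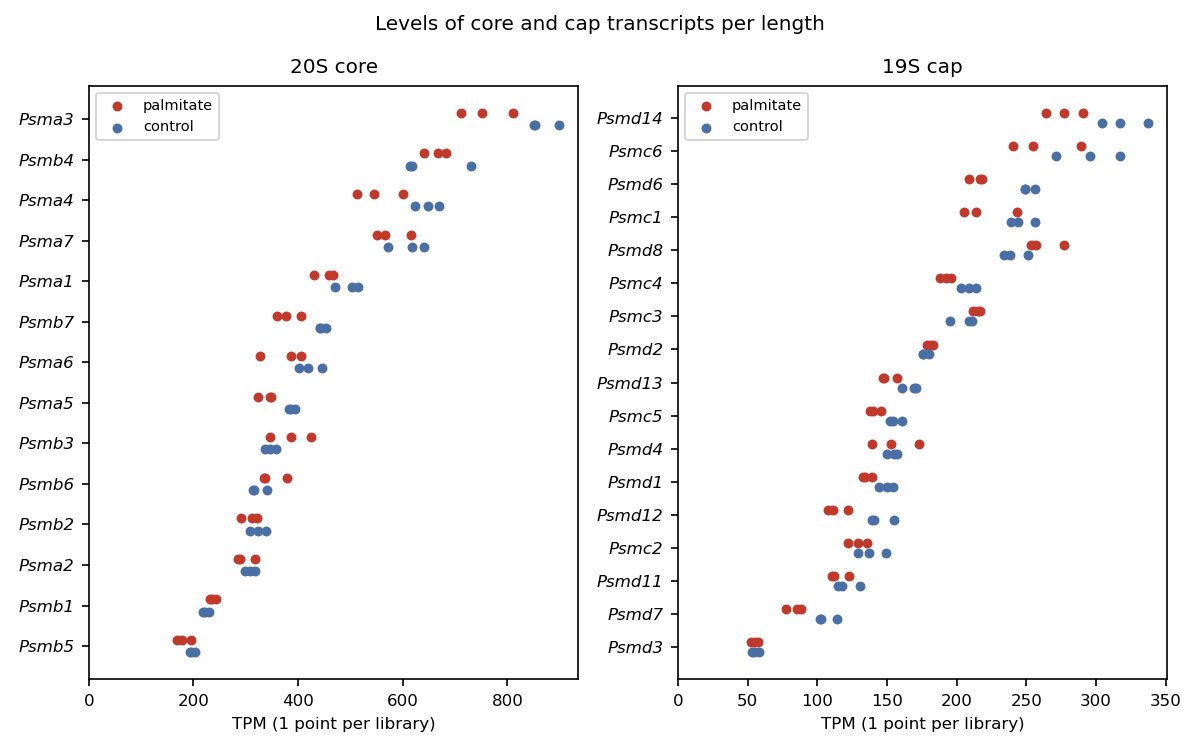
Level of each core and cap gene in TPM (linear axis), summed over its transcripts, 1 point per library, with palmitate beside control. Core genes run from Psmb5 (181 TPM in palmitate cells, 197 TPM in control cells) to Psma3 (758 TPM in palmitate cells, 867 TPM in control cells), and cap genes from Psmd3 to Psmd14.

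The comparison of palmitate with control gave small differences of level for nearly all proteasome genes. Among the 47 tested, 6 fell (12.8%) and 1 rose (2.13%) at an adjusted p under 0.05 in edgeR's quasi-likelihood test, beside 11.7% of all genes tested that fell and 11.1% that rose (22.9% in either direction). The fallers were the alpha subunit Psma4, the lid subunits Psmd12, Psmd7 and Psmd6, the core assembly chaperone Psmg1 and the base chaperone Psmd9, and the gene that rose was the Psme2-like gene Psme2b. The median log2 fold change (palmitate over control) of the 47 was -0.11, with 36 below 0, against 0.02 for all genes tested, of which 47.9% were below 0. Genes as abundant as core and cap genes had a lower median too: 1948 genes with a mean log2 CPM of 6.70 to 9.22 had a median of -0.13, 70.1% were below 0 and 24.6% fell. The 31 core and cap genes had that same median, -0.13, and 4 of them fell (12.9%).

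Fitting the replicate number as a block took the count of members that fell to 14 (29.8%) and left 1 that rose. Of all genes 16.6% fell and 16.5% rose in that fit. No share of genes at matched level was taken for the block, so the members are not set against genes as abundant. The added genes were Psma3, Psma5, Psma6, Psmb7, Psmc1, Psmc6, Psmd14 and Psme3. With 1 library left out at a time, between 0 and 8 members fell: 0 without control library 3, 1 without control library 2, palmitate library 1 or palmitate library 3, 5 without palmitate library 2 and 8 without control library 1. Without palmitate library 1, where 1 member fell, edgeR's test called 769 of all genes lower, against 1416 with all 6 libraries. On all 6 libraries, edgeR's test gave 15 members lower at an unadjusted p under 0.05. No share over all genes was taken at that threshold, so nothing is read from counts at it, here or by class and list below. DESeq2 called 13 members and 1848 of all genes lower, and limma-voom 6 members and 1338 of all genes.

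A description free of any threshold is whether the groups overlap in CPM. In 15 of the 47 members (31.9%) every palmitate library was below every control library, beside 21.2% of all genes tested. In 1 member (2.13%), Psme2b, every palmitate library was above, beside 21.6% of all genes. Nothing is read from these shares, since this comparison was known when the family was chosen.

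**Figure D2:**
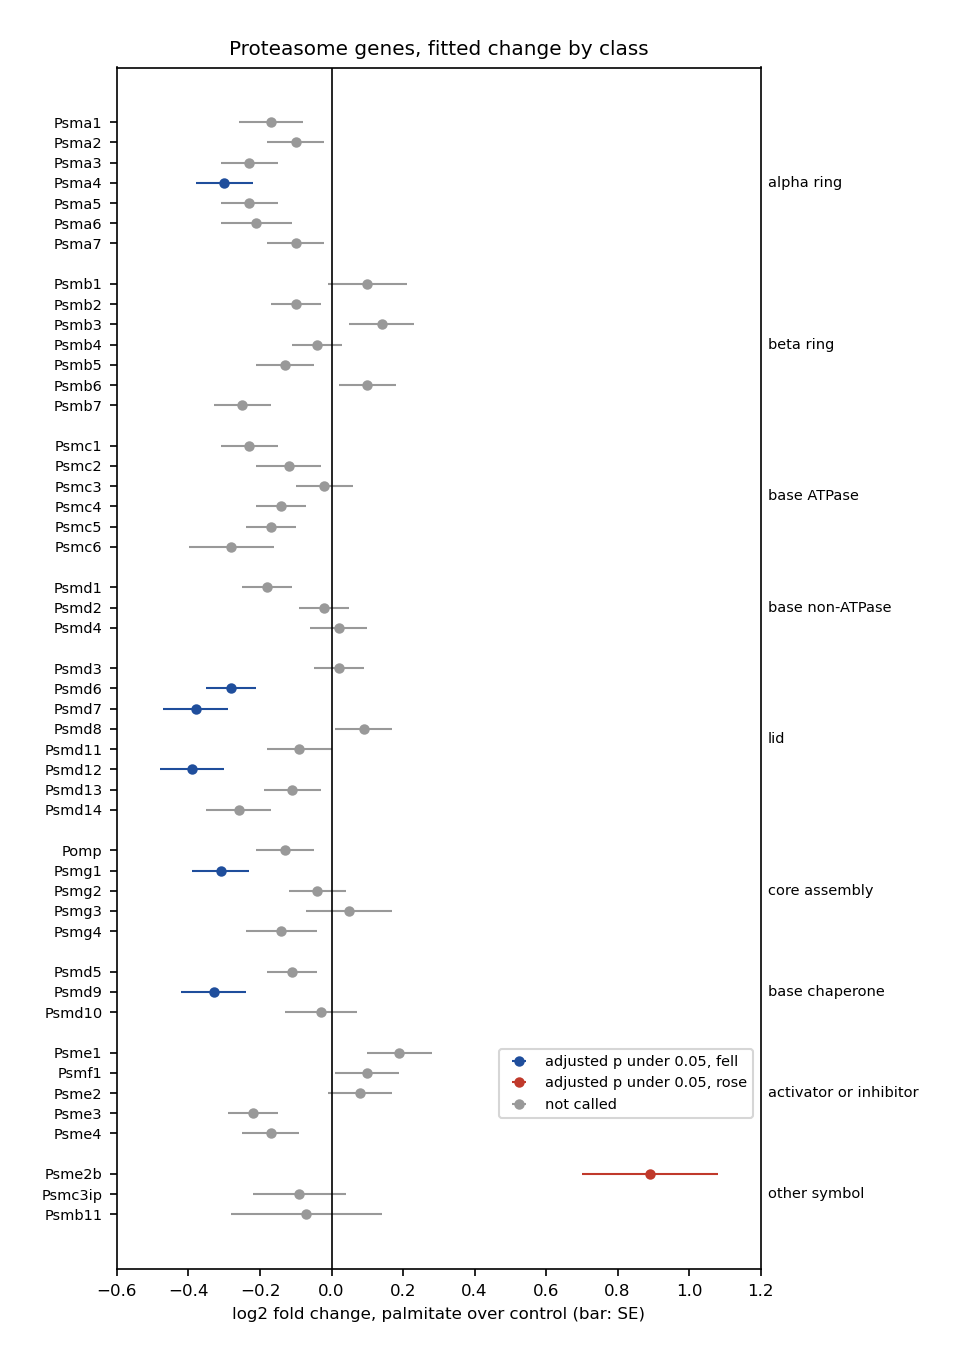
Log2 fold change (palmitate over control) of each tested proteasome gene with its standard error, by class, from edgeR's fit over 12068 genes; blue points fell, the red point rose and grey points did not pass the adjusted p of 0.05. All points but Psme2b lie between -0.39 and 0.19, with the medians of core (-0.12) and cap (-0.14) close to each other and Psme2b (0.89) apart.

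Core and cap had nearly the same median. The 14 core genes had a median log2 fold change of -0.12, between -0.30 (Psma4) and 0.14 (Psmb3), and the 17 cap genes had -0.14, between -0.39 (Psmd12) and 0.09 (Psmd8). Their difference, core minus cap, was 0.03 (-0.00 to 0.04 over the 14 alternative fits), and its values in single libraries varied with an SD of 0.04 within groups. In the core 1 of 14 genes fell (7.14%), in the cap 3 of 17 (17.6%), and with the replicate block these counts were 5 and 6. None of these 31 genes rose in edgeR's test, by unadjusted p (0 genes), DESeq2 (0) or limma-voom (0); the lid subunit Sem1, whose name the rule does not cover, is described with the other pathway genes. Upper-quartile scaling moved both medians nearer to 0, to -0.06 in the core and -0.08 in the cap, and under it Psma4, Psmg1 and Psmd9 were not called (adjusted p = 0.061, 0.0503 and 0.0613).

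Summed over all core genes, levels were 5678, 5958 and 5937 TPM in palmitate libraries 1 to 3, against 6255, 6172 and 6326 TPM in control libraries 1 to 3. For the cap the sums were 2810.3, 3003 and 2895 TPM in palmitate libraries, against 3104, 3198 and 3103 TPM in control libraries. The groups did not overlap in either sum, and the palmitate mean was 93.7% of the control mean in the core and 92.6% in the cap. Palmitate library 1 was lowest in both. The ratio of the sums, core over cap, was 2.02, 1.98 and 2.05 in palmitate libraries, against 2.02, 1.93 and 2.04 in control libraries, and overlapped.

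**Figure D3:**
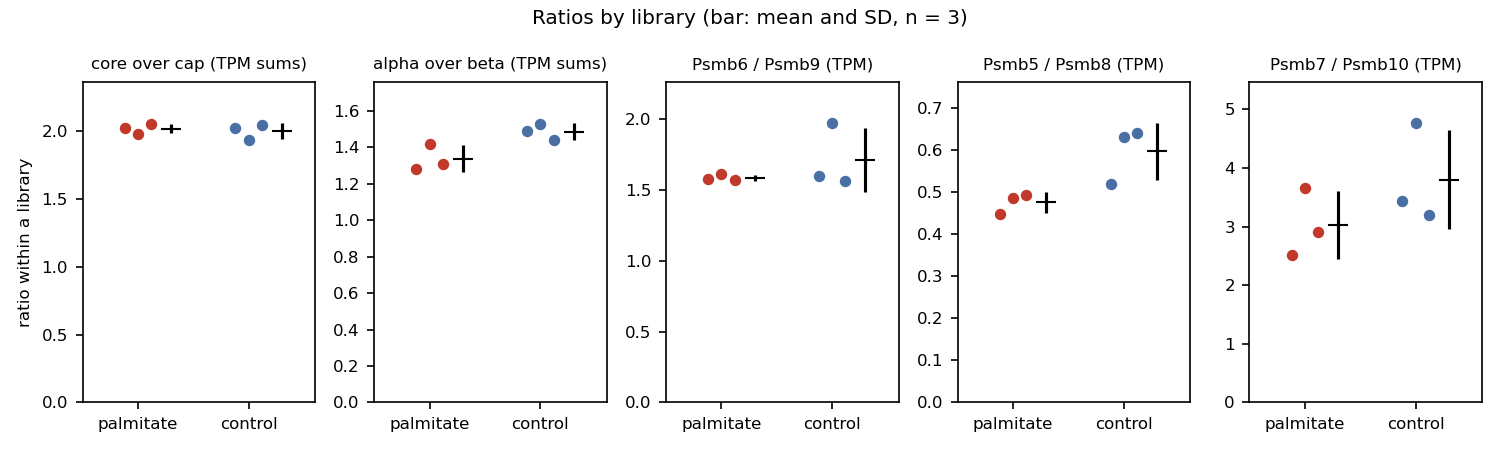
Ratios of summed or single-gene TPM in each library, palmitate left of control, with a cross for the group mean and its SD (n = 3). Core over cap overlaps between groups (mean 2.02 in palmitate cells, 1.99 in control cells), while alpha over beta (1.34 in palmitate cells, 1.49 in control cells) and Psmb5 over Psmb8 (0.476 in palmitate cells, 0.597 in control cells) do not.

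Within the core, the difference in summed level lay mostly in the alpha ring. All 7 alpha genes had a log2 fold change below 0, with a median of -0.21, and their summed level was 3191, 3500.3 and 3364 TPM in palmitate libraries, against 3739.7, 3734 and 3738 TPM in control libraries. The 7 constitutive beta genes had a median of -0.04, 4 of them below 0, and sums of 2487, 2458 and 2573 TPM in palmitate libraries, against 2515, 2439 and 2588 TPM in control libraries, which overlapped. Alpha over beta was 1.28, 1.42 and 1.31 in palmitate libraries, against 1.49, 1.53 and 1.44 in control libraries. On the CPM scale that ratio overlapped, at 1.8, 2 and 1.79 in palmitate libraries, against 1.98, 2.08 and 2.09 in control libraries. The difference between the rings was not tested.

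Psma4 (ENSMUSG00000032301) was the alpha subunit that fell. It had 411, 484 and 438 CPM in palmitate libraries 1 to 3, against 538, 534 and 574 CPM in control libraries 1 to 3. Every palmitate library was below every control library, and palmitate library 1 was the lowest. The log2 fold change was -0.30 ± 0.08 (SE; adjusted p = 0.0324, edgeR), and the call held in 2 of the 6 fits with 1 library left out. Psma3 and Psma5, alpha subunits at -0.23 each, had adjusted p-values of 0.0717 and 0.0696, or 0.0339 and 0.0355 with the replicate block. For Psma6 the log2 fold change was -0.21 (adjusted p = 0.176, or 0.0414 with the block), and its groups overlapped. Psma7, at -0.10 ± 0.08, and Psma2, also at -0.10 ± 0.08, were nearest to 0 in the ring.

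None of the 3 catalytic subunits was called, and differences among them were not tested. Psmb5, the chymotrypsin-like site, had 104, 108 and 122 CPM in palmitate libraries, against 123, 118 and 125 CPM in control libraries, with palmitate library 3 inside the control range (log2 fold change -0.13 ± 0.08, adjusted p = 0.26). Psmb6, the caspase-like site, had 171, 180.2 and 203 CPM in palmitate libraries, against 183, 166 and 169 CPM in control libraries, which overlapped (0.10 ± 0.08, adjusted p = 0.427). Psmb7, the trypsin-like site, had 294, 352 and 328 CPM in palmitate libraries, against 380.2, 391 and 389.8 CPM in control libraries. Its groups did not overlap, and at -0.25 ± 0.08 its adjusted p was 0.0549, or 0.0242 with the replicate block and 0.0461 on transcript sums. Among the non-catalytic beta subunits Psmb3 was highest at 0.14 ± 0.09 (adjusted p = 0.266). The matrix held 57.6% of the reads of Psmb1, whose log2 fold change was 0.10 in the matrix and 0.03 on transcript sums.

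Among the 17 cap genes named Psm, the lid held all 3 that fell in edgeR's main test. Uchl5 and Usp14, deubiquitinases of the cap without such a name, also fell and are described with the other pathway genes. The lid's 8 subunits named Psm had a median of -0.18, 6 of them below 0, and summed levels of 1241, 1327 and 1249 TPM in palmitate libraries, against 1382, 1451 and 1386 TPM in control libraries. Psmd12 (ENSMUSG00000020720), a lid scaffold, had 153, 178 and 172 CPM in palmitate libraries, against 203, 237 and 219 CPM in control libraries, a log2 fold change of -0.39 ± 0.09 (adjusted p = 0.0186). Psmd7 (ENSMUSG00000039067), the partner of the deubiquitinase Psmd14, had 107, 129 and 129 CPM in palmitate libraries, against 152, 169.5 and 155 CPM in control libraries (-0.38 ± 0.09, adjusted p = 0.0221). Psmd6 (ENSMUSG00000021737), another scaffold, had 193, 199 and 199 CPM in palmitate libraries, against 228, 234 and 254 CPM in control libraries (-0.28 ± 0.07, adjusted p = 0.0259). In all 3 genes the groups did not overlap. Of the 6 fits with 1 library left out, the call held in 4 for Psmd7, 2 for Psmd12 and 1 for Psmd6.

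Psmd14 itself, at 285, 320.2 and 319.9 CPM in palmitate libraries and 337, 385 and 386 CPM in control libraries, stood at -0.26 ± 0.09 on the log2 scale (adjusted p = 0.0597, or 0.0155 with the replicate block). The lid subunit Psmd8 lay on the other side of 0, at 275 ± 22.4 CPM in palmitate cells and 259 ± 9.99 CPM in control cells (0.09 ± 0.08, adjusted p = 0.442), as did Psmd3 at 0.02 ± 0.07 (adjusted p = 0.898). The 8 lid genes with a Psm name thus spanned -0.39 to 0.09, and Sem1, the lid subunit without one, lay beyond them at 0.28.

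**Figure D4:**
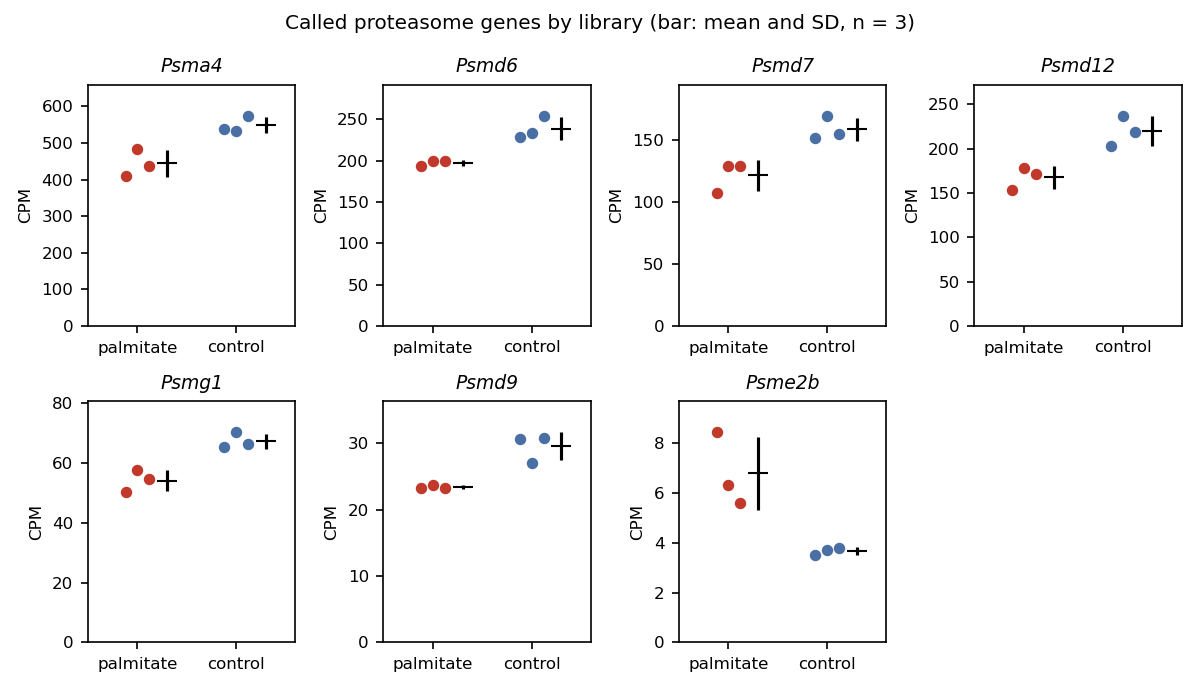
CPM in each library of the 7 proteasome genes that passed the test, palmitate left of control, 1 point per library with a cross for the group mean and its SD (n = 3); each panel's axis starts at 0. Psma4, Psmd12, Psmd7, Psmd6, Psmg1 and Psmd9 are lower in every palmitate library than in any control library, and Psme2b is higher in every one.

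The base of the cap consists of the ATPase ring and the large subunits that dock ubiquitin receptors. All 6 ATPase genes were below 0, with a median of -0.16 and summed levels of 1105, 1214 and 1157 TPM in palmitate libraries, against 1240.1, 1257 and 1249 TPM in control libraries. Psmc6 was lowest, at 299.6, 374 and 359 CPM in palmitate libraries, against 359, 455 and 439 CPM in control libraries. Its groups overlapped, library 1 was the lowest of its group in both, and the adjusted p was 0.117 (-0.28 ± 0.12), or 0.0121 with the replicate block. Psmc1 had the smallest adjusted p of the ring, 0.0651 (-0.23 ± 0.08; 0.0398 with the block), and Psmc3 stood at -0.02 ± 0.08 (adjusted p = 0.87). Among the non-ATPases, the scaffold Psmd1 was at -0.18 ± 0.07 (adjusted p = 0.0947) and the ubiquitin receptor Psmd4 at 0.02 ± 0.08 (adjusted p = 0.852). No ATPase or other base subunit passed edgeR's test, while 3 ATPase genes and 1 non-ATPase gene were lower at an unadjusted p under 0.05. DESeq2 called 1 ATPase gene and 1 non-ATPase gene lower, and limma-voom called 0 and 0.

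Among the assembly factors, 1 gene fell for the core and 1 for the base. Psmg1 (ENSMUSG00000022913), which with Psmg2 guides alpha ring assembly, had 50.3, 57.6 and 54.5 CPM in palmitate libraries, against 65.2, 70.2 and 66.2 CPM in control libraries. The log2 fold change was -0.31 ± 0.08 (adjusted p = 0.0274), the groups did not overlap, and 2 of the 6 fits without a library kept the call. Its partner Psmg2 was at -0.04 ± 0.08 (adjusted p = 0.751), with 51.0 ± 3.42 CPM in palmitate cells and 52.4 ± 0.644 CPM in control cells. Psmg3, of the second chaperone pair, was the highest of the class at 0.05 ± 0.12 (adjusted p = 0.779), and its partner Psmg4 was at -0.14 ± 0.10 (adjusted p = 0.337). Pomp had 154, 179.7 and 183 CPM in palmitate libraries, against 179.7, 188 and 199 CPM in control libraries, which overlapped (-0.13 ± 0.08, adjusted p = 0.284). The matrix held 81.1% of Pomp's reads.

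Psmd9 (ENSMUSG00000029440), a chaperone of the ATPase ring, had 23.2, 23.8 and 23.3 CPM in palmitate libraries, against 30.7, 27.1 and 30.8 CPM in control libraries (-0.33 ± 0.09, adjusted p = 0.0286). The groups did not overlap in the matrix, which held 85.8% of the gene's reads, and 2 of the 6 fits without a library kept the call. On sums over all its transcripts the log2 fold change was -0.07 (adjusted p = 0.673). Its 2597-base transcript had 10.1 ± 0.264 TPM in palmitate cells and 12.7 ± 0.813 TPM in control cells, while a 334-base transcript had 14.2 ± 1.08 TPM in palmitate cells and 11.6 ± 3.22 TPM in control cells. That fit differs from the matrix both in the transcripts counted and in its length offsets, and the part of each was not tested. The other chaperones of the base, Psmd5 at -0.11 ± 0.07 (adjusted p = 0.277) and Psmd10 at -0.03 ± 0.10 (adjusted p = 0.844), did not pass the test.

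Activators that can replace the cap had log2 fold changes on both sides of 0. Psme1 and Psme2 form the interferon-inducible activator, and Psme1 had 378, 443 and 417 CPM in palmitate libraries, against 385, 331 and 366 CPM in control libraries, which overlapped (0.19 ± 0.09, adjusted p = 0.148). Psme2 was at 0.08 ± 0.09 (adjusted p = 0.571). Psme3, the nuclear activator, had 214, 235 and 219.7 CPM in palmitate libraries, against 271, 257 and 253 CPM in control libraries. Its groups did not overlap, with an adjusted p of 0.052 (-0.22 ± 0.07), or 0.0381 with the replicate block. Psme4, an activator known for its role in spermatogenesis and histone turnover, was at -0.17 ± 0.08 (adjusted p = 0.149), and Psmf1, which inhibits the core in vitro, at 0.10 ± 0.09 (adjusted p = 0.413). No gene of this class passed edgeR's test; 1 was lower at an unadjusted p under 0.05, DESeq2 called 1 lower and limma-voom called 0.

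The remaining 4 genes have names that the rule covers but were not classed with the core, cap, assembly factors or activators. Psme2b (ENSMUSG00000078153) had 8.43, 6.33 and 5.61 CPM in palmitate libraries, against 3.51, 3.73 and 3.81 CPM in control libraries, all palmitate libraries being higher. It rose by a log2 fold change of 0.89 ± 0.19 (adjusted p = 0.0164), and 5 of the 6 fits without a library kept the call. Its sequence resembles that of Psme2, at 425 ± 34.7 CPM in palmitate cells and 403 ± 32.7 CPM in control cells, and reads that both genes could give are divided by estimation, so its value is uncertain. Psmc3ip, a factor of meiotic recombination, was at -0.09 ± 0.13 (adjusted p = 0.656), and Psmb11, the beta subunit of thymic cortex, at -0.07 ± 0.21 (adjusted p = 0.831) with 2.35 ± 0.24 CPM in palmitate cells and 2.48 ± 0.376 CPM in control cells. Psma8, the testis form of an alpha subunit, was not tested, at 0.0597 to 0.236 CPM in palmitate libraries and 0.138 to 0.321 CPM in control libraries.

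Each constitutive catalytic subunit has an immunoproteasome counterpart, so the balance can be given as a ratio within a library. Psmb6 over Psmb9 was 1.58, 1.61 and 1.57 in palmitate libraries, against 1.6, 1.97 and 1.56 in control libraries, and Psmb7 over Psmb10 was 2.52, 3.65 and 2.9 in palmitate libraries, against 3.43, 4.76 and 3.2 in control libraries. Both overlapped. Psmb5 over Psmb8 was 0.448, 0.486 and 0.494 in palmitate libraries, against 0.52, 0.631 and 0.64 in control libraries, and the groups did not overlap. These are ratios of TPM over all transcripts, of which a large part is non-coding in Psmb8 and Psmb10, and the gene matrix held 43.1% of the reads of Psmb8 and 45.9% of those of Psmb10. With coding transcripts alone, Psmb5 over Psmb8 was above 1, at 1.12, 1.16 and 1.08 in palmitate libraries, against 1.19, 1.41 and 1.43 in control libraries, and again the groups did not overlap. On that scale Psmb7 over Psmb10 averaged 18.3 ± 4.21 in palmitate cells and 22.5 ± 4.6 in control cells, and Psmb6 over Psmb9 1.32 ± 0.0877 in palmitate cells and 1.32 ± 0.175 in control cells (SD, n = 3 each), with groups that overlapped. A 433-base coding transcript of Psmb9 gave 109.8 ± 13.9 TPM in palmitate cells and 104 ± 19.8 TPM in control cells, from 19.3% of the gene's reads. Its 1352-base coding transcript had 54.6 ± 9.63 TPM in palmitate cells and 47.7 ± 2.49 TPM in control cells. The ratio to Psmb9 thus rests largely on the short transcript. None of the 3 immunoproteasome genes passed edgeR's test, with 0 at an unadjusted p under 0.05 and 0 by DESeq2 or limma-voom, while the replicate block called Psmb9 higher (adjusted p = 0.0458).

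Other genes of the pathway were taken from 7 lists of 44 genes, of which 43 were tested, 2 rose and 4 fell, or 6 and 6 with the replicate block. Over all genes tested 11.1% rose and 11.7% fell, or 16.5% and 16.6% with the block. Of the 4 cap subunits and deubiquitinases without a Psm name, Sem1 rose and Uchl5 and Usp14 fell. Uchl5, a deubiquitinase bound to the cap, had 238, 327 and 289.7 CPM in palmitate libraries, against 533, 684 and 665 CPM in control libraries (-1.14 ± 0.14, adjusted p = 0.00368), and all 6 fits without a library kept the call. Of its reads 68.4% were assigned to a 461-base retained-intron transcript, at 687, 1078 and 835 TPM in palmitate libraries, against 2053, 2529 and 2312 TPM in control libraries. Its main coding transcript had 50.5, 54.2 and 57.3 TPM in palmitate libraries, against 72.3, 95.2 and 85.4 TPM in control libraries, so the groups were apart there too. Usp14, the other deubiquitinase, had 155, 137 and 164 CPM in palmitate libraries, against 178, 209 and 200.5 CPM in control libraries (-0.37 ± 0.09, adjusted p = 0.0272). Sem1, a small lid subunit, had 138, 158 and 159.8 CPM in palmitate libraries, against 119.6, 121 and 134 CPM in control libraries (0.28 ± 0.08, adjusted p = 0.0411). Leaving out a library kept the call in 2 of 6 fits for Usp14 and 1 for Sem1. Adrm1, the receptor that anchors Uchl5, was at -0.00 (adjusted p = 0.977).

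Nfe2l1, the transcription factor of the proteasome response, had 98.9, 122 and 112 CPM in palmitate libraries, against 99.9, 125 and 104 CPM in control libraries, which overlapped (0.02, adjusted p = 0.928). Of the 9 genes of its route, which covers its processing enzymes and binding partners, 1 rose and 1 fell. Syvn1, a ubiquitin ligase of the endoplasmic reticulum, had 10.6, 11 and 10.3 CPM in palmitate libraries, against 7.26, 6.29 and 7.96 CPM in control libraries (0.57, adjusted p = 0.0228), counted from 75.8% of its reads. On transcript sums its adjusted p was 0.0851. Mafg, a small partner of NFE2L1, fell by 0.27 on the log2 scale (adjusted p = 0.0481), a call kept by 0 of the 6 fits without a library and lost with upper-quartile scaling (0.102), no filter (0.0562), a minimum of 5 CPM (0.0598), limma-voom (0.051) and transcript sums (0.0958). Among proteasome-associated factors 1 of 8 fell, the ubiquitin ligase Ube3c (-0.29, adjusted p = 0.0482), or 3 of 8 with the replicate block. Ube3c was kept by 1 of the 6 fits without a library and was not called with upper-quartile scaling (adjusted p = 0.0838), a minimum of 5 CPM (0.0543), limma-voom (0.0541) or transcript sums (0.11). Ecpas, a scaffold bound to the proteasome, was at -0.23 ± 0.08 (adjusted p = 0.0635, or 0.0322 with the block). In the lists of shuttle factors (5 genes), ubiquitin genes and their E1 enzymes (6) and partners of the unfoldase Vcp (8), edgeR's test called 0. At an unadjusted p under 0.05 the counts were 0, 2 and 2, by DESeq2 0, 1 and 1, and by limma-voom 0 in each. The shuttle factors nearest to a call were Ubqln1 at -0.15 ± 0.08 (adjusted p = 0.223) and Rad23b at -0.16 ± 0.09 (adjusted p = 0.233), which carry ubiquitin-tagged proteins to the cap. Of the Vcp partners, Ubxn1 was at -0.21 ± 0.07 (adjusted p = 0.0712) and Nsfl1c at 0.18 ± 0.06 (adjusted p = 0.0784). The block called Ubb, which encodes ubiquitin, higher (adjusted p = 0.0399).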

How the data were processed

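RNA of 3 palmitate and 3 control libraries was measured. Salmon 1.10.0, Trim Galore 0.6.10, DESeq 1.42.0 and build GRCm39 stand in the submitters' processing notes, with strandedness not given in the sources used here. Deposited were a matrix of estimated counts per gene, in whole numbers, and each library's Salmon output of expected counts, TPM and lengths per transcript. The deposited TPM were summed per gene. Of 116224 transcripts, 98.78% matched a gene, with 99.44% to 99.49% of reads. Symbols came from GENCODE M21, an earlier build, so the only coordinates printed are those of RefSeq's promoters. Reads that near-identical copies share are divided by estimation, so such genes are uncertain.

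The matrix was tested by edgeR 4.0.16 under R 4.3.3 (TMM, edgeR's filter on low counts, robust two-sided quasi-likelihood test, Benjamini-Hochberg over 12068 genes, adjusted p under 0.05, group as the single term) and all 6 libraries. CPM use TMM-scaled library sizes. The procedure was tested on simulated counts. Alternatives were upper-quartile and RLE scaling, no low-count filter, a mean of at least 5 CPM, limma-voom (limma 3.58.1), DESeq2 1.42.0, a replicate block, transcript sums with length offsets and each library left out; coding transcripts alone and the comparison at matched level were added after seeing the data. The main test did not pair libraries, since the labels do not say that replicate numbers mark a shared animal or day. Deviations from group means correlated at 0.226, 0.13 and 0.152 for equal numbers, against -0.185 to 0.0608 otherwise. Results with the replicate block are therefore given beside the main test.

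Members, lists and the naming rule were chosen with earlier results of these data known. The rule names the catalytic subunits, Pomp, Psme3, Psme4, Psmf1, Nfe2l1 and Adrm1; in each class the highest, the lowest and the smallest adjusted p, and members that moved against their class; and 2 genes per pathway list. Others were named after their values were seen. Some genes of the pathway lists are not reported here. The 4 pseudogenes with such names were left out. Fam192a, which RefSeq names Psme3ip1, was not counted as a member.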

Additional observations from a re-analysis of the deposited data

How the results depend on the processing

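The medians of core and cap and their difference kept their sign under all 14 alternatives, except that the difference was -0.00 without palmitate library 3. Calls were less steady. Members that fell numbered 6 as reported, 3 with upper-quartile scaling, 13 with DESeq2 and 14 with the replicate block, and 0 to 8 with 1 library left out; members that rose numbered 0 to 1, with 0 in edgeR's fit without control library 3 and 1 in every other fit. In the pathway lists 4 genes fell as reported, 2 with upper-quartile scaling, a minimum of 5 CPM or limma-voom, 7 with DESeq2, and 1 to 6 with 1 library left out. There 2 rose as reported, 5 with upper-quartile scaling or the minimum of 5 CPM, 6 with the replicate block, 1 on transcript sums, and 0 to 2 with 1 library left out. Over all genes 2759 were called, 1343 higher and 1416 lower, against 690 to 3433 with 1 library left out (344 to 1604 higher, 346 to 1829 lower). Upper-quartile scaling split them into 1651 higher and 1052 lower, and the replicate block called 3993. With coding transcripts alone, the palmitate minus control difference of Psmb5 over Psmb8 was -0.226 (-0.121 over all transcripts) and that of Psmb7 over Psmb10 -4.18 (-0.772). No named gene changed direction while called. Depth and 3 libraries per group limit what can be called; a gene that missed the threshold is not shown to be unaltered. The causes of these differences between settings were not tested.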
